A study of Mus musculus with 6 samples.

Results

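Leukocyte barcodes that also carried platelet transcripts were examined in single-cell libraries of mouse peripheral blood mononuclear cells. A barcode stands for 1 microwell, which can hold a single cell or a cell with something attached to it. Barcodes with at least 200 detected genes and at most 20% mitochondrial UMIs (unique molecular identifiers, each counting 1 captured mRNA molecule) were kept. A barcode counted as carrying platelet transcripts when Pf4, Ppbp, Gp9, Itga2b, Treml1 and Tubb1 together had at least 5 UMIs. It counted as a leukocyte through at least 2 UMIs of Cd3d, Cd3e and Cd3g (T), at least 3 of Cd79a, Cd79b and Ms4a1 (B), or at least 5 of Lyz2 (Lyz2-positive, which takes in monocytes and neutrophils). Of 49025 kept barcodes, 42141 were T, B or Lyz2-positive, and 800 of these carried platelet transcripts. They were set against the 38507 leukocyte barcodes with 0 UMIs of the 6 platelet genes.

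The blood came from male mice of 12 to 13 weeks. Control mice (Con, 3 libraries) had intraperitoneal saline, and diabetic mice (T2D, 3 libraries) had intraperitoneal streptozotocin, a toxin of insulin-producing beta cells. The series title gives the model as a high-fat diet with streptozotocin, and the diet of the controls is not stated in the sources used here. All samples were enriched for mononuclear cells on Ficoll and treated with ACK buffer, which lyses red blood cells, so that neutrophils are those left after that step. It is not stated if each library came from a single animal or from pooled blood. All p-values therefore rest on how far these libraries lie apart, a spread that may be technical. No batch is named.

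Platelets are fragments of megakaryocytes without a nucleus, and they keep a small set of megakaryocyte mRNAs. Pf4 and Ppbp encode chemokines stored in their alpha granules, Gp9 is a subunit of the receptor for von Willebrand factor, Itga2b is the alpha chain of the fibrinogen receptor, Treml1 is a granule membrane protein and Tubb1 is the beta tubulin of the platelet's marginal band. Activated platelets expose P-selectin (Selp), which binds its ligand PSGL-1 (Selplg) on leukocytes, and integrin Mac-1 (Itgam with Itgb2) then binds platelet glycoprotein Ib. Monocytes and neutrophils with bound platelets circulate in blood and are counted clinically as platelet-leukocyte aggregates. In the annotation of build mm10, Ppbp (chr5:90768518-90770063, plus strand) and Pf4 (chr5:90772435-90773383, plus strand) are neighbouring genes.

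The matrices held 7404 to 9112 barcodes and 23574052 to 32321855 UMIs each, and the median depth of kept barcodes was 2814 to 3244 UMIs. Pairs of libraries shared 65 to 89 barcode sequences, and no pair of libraries was closer than sampling noise allows for a repeated library. Summed over a class, platelet-carrying barcodes gave 56664 to 301103 UMIs per library for T, 74196 to 247044 for B and 217204 to 1455154 for Lyz2-positive. Intervals on shares below are exact 95% binomial intervals and cover counting error only.

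Ppbp made up most of the platelet signal that chose these barcodes. It gave 70.97% of the UMIs of the 6 genes and was found in 99.25% of the 800 barcodes, and Pf4 gave 12.88% and was found in 75.0%. Itga2b gave 6.628%, Treml1 5.459%, Gp9 3.349% and Tubb1 0.714%. In 139 platelet barcodes with no UMI of the T, B or Lyz2 genes, Ppbp gave 67.66% and Pf4 15.32%, so the mix of the 6 genes was much the same in both sets. The median was 9 platelet UMIs per barcode, with a range of 5 to 741. The members were chosen by these UMI counts, so the values are a description.

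The distribution of platelet UMIs differed in shape between the classes. Exactly 1 platelet UMI was seen in 5.102% of T and 4.02% of B barcodes, and the share dropped to 0.6613% and 0.5294% at exactly 2. In Lyz2-positive barcodes 9.958% had exactly 1 and 6.421% had exactly 2. The open bin of 12 or more held 0.3242% of T, 0.2547% of B and 6.807% of Lyz2-positive barcodes. In every class it held more than the bin of exactly 11 did. Of the platelet-carrying barcodes, 50 of 130 in T, 64 of 173 in B and 229 of 576 in Lyz2-positive had 12 or more. At least 1 platelet UMI was present in 7.21% of T, 5.636% of B and 41.83% of Lyz2-positive barcodes. T and Lyz2-positive barcodes without platelet UMIs had similar depth, with medians of 4017 and 4059 UMIs, against 2839 in B. Pooled over libraries, carriers were deeper, with medians of 4755 UMIs in T, 3590 in B and 6572 in Lyz2-positive barcodes. In T2D 3 the Lyz2-positive carriers were shallower, with a median of 3597 UMIs against 4274 without platelet UMIs. Free RNA can give single UMIs in any barcode, and its part in the T and B shares was not tested.

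**Figure D1:**
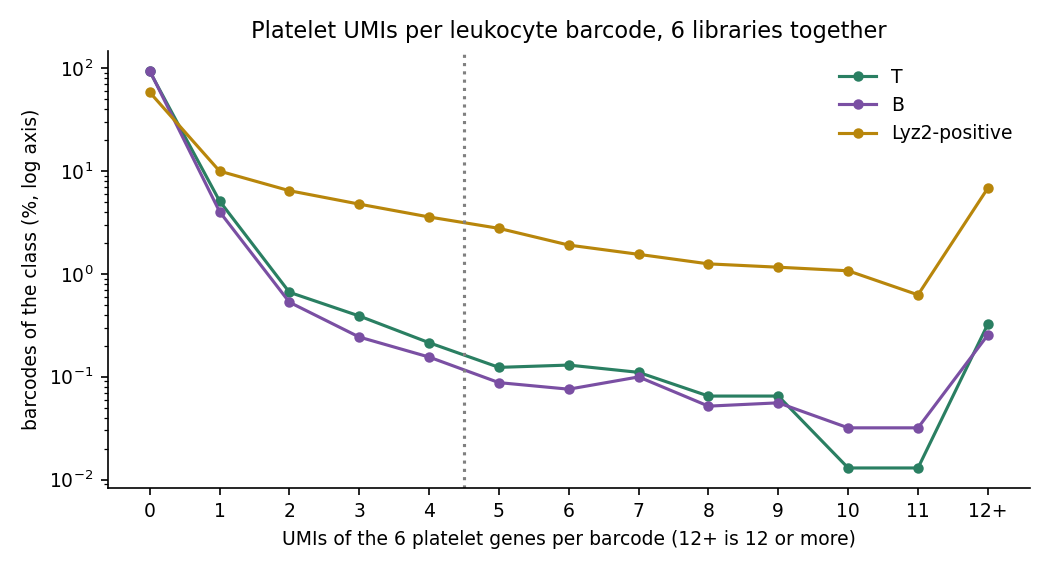
Share of T, B and Lyz2-positive barcodes (vertical axis, percent, log scale) by the number of UMIs of the 6 platelet genes (horizontal axis), 6 libraries together, with the membership threshold as a dotted line. The T and B curves drop steeply from 1 to 2 UMIs, and the Lyz2-positive curve declines slowly. Every curve rises at the last point, the open bin of 12 or more, which holds 0.3242% of T, 0.2547% of B and 6.807% of Lyz2-positive barcodes.

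The threshold cut through a continuous range. The 424 leukocyte barcodes just outside it, with 3 or 4 platelet UMIs, had a median of 4596.5 UMIs and 66.04% were Lyz2-positive. The 220 just inside, with 5 or 6, had a median of 5290 UMIs and 71.36% were Lyz2-positive. The 174 barcodes with at least 20 platelet UMIs had a median of 3051.5 UMIs, lower than both bands at the threshold. Over all members the median depth was 5112.5 UMIs, against 3161 in leukocytes with 0 platelet UMIs and 884 in platelet barcodes with no T, B or Lyz2 UMI.

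Lyz2-positive barcodes carried platelet transcripts far more often than lymphocytes. They made up 72.0% of members and 7.983% of all leukocyte barcodes. Over the 6 libraries 576 of 3364 Lyz2-positive barcodes carried platelet transcripts (17.12%, 15.86% to 18.44%), against 130 of 15424 T barcodes (0.8428%, 0.7047% to 1.0%) and 173 of 25124 B barcodes (0.6886%, 0.5901% to 0.7987%). In each of the 6 libraries the Lyz2-positive share was above both lymphocyte shares. The platelet UMI count of each barcode was then thinned to a depth of 1500 UMIs, and at least 3 platelet UMIs were asked for. Classes and gates stayed as set at the deposited depth. The shares were then 9.15% for Lyz2-positive, 0.5168% for T and 0.5135% for B, with 424, 524 and 1173 shallower barcodes left out.

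The share of Lyz2-positive barcodes carrying platelet transcripts was 13.31%, 22.0% and 17.4% in Con 1, 2 and 3, and 19.29%, 22.85% and 7.504% in T2D 1, 2 and 3. T2D held both the highest and the lowest library, so the groups overlapped fully, and the intervals of T2D 2 (20.1% to 25.78%) and T2D 3 (5.484% to 9.975%) did not meet. In T barcodes the share was 0.5149%, 0.9891% and 0.5272% in Con against 1.017%, 1.419% and 0.454% in T2D. In B barcodes it was 0.5381%, 0.7728% and 0.5375% in Con against 0.9201%, 0.9235% and 0.4015% in T2D. In all 3 classes T2D 2 was the highest library and T2D 3 the lowest.

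No difference in these shares between T2D and Con passed the test. The mean share was 17.57% ± 4.345 (SD, n = 3) in Con and 16.55% ± 8.031 (SD, n = 3) in T2D for Lyz2-positive barcodes, with an exact permutation p of 0.9 (two-sided). For T barcodes it was 0.6771% ± 0.2703 against 0.9635% ± 0.4848 (exact permutation p = 0.6, n = 3 each), and for B barcodes 0.6161% ± 0.1356 against 0.7483% ± 0.3004 (exact permutation p = 0.4, n = 3 each). For the 3 classes together it was 1.748% ± 0.447 against 2.019% ± 1.216 (exact permutation p = 0.8, n = 3 each). Adjusted over these 4 tests by the Benjamini-Hochberg method, each p was 0.9, and 3 libraries against 3 cannot give a p below 0.1. The sign of the Lyz2-positive difference rested on T2D 3, since without it T2D was higher by 3.496 percentage points, and also on Con 2, without which T2D was higher by 1.189. Platelet barcodes with no T, B or Lyz2 UMI, 21 to 29 per library, made up 0.2382% of T2D 2 and 0.2566% of T2D 3. In the Con libraries they made up 0.2904% to 0.3951%. All barcodes with at least 5 platelet UMIs, members among them, made up 4.254% of T2D 2, the highest library, and 1.54% of T2D 3, the lowest. The part of platelet number in the library differences was not tested.

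**Figure D2:**
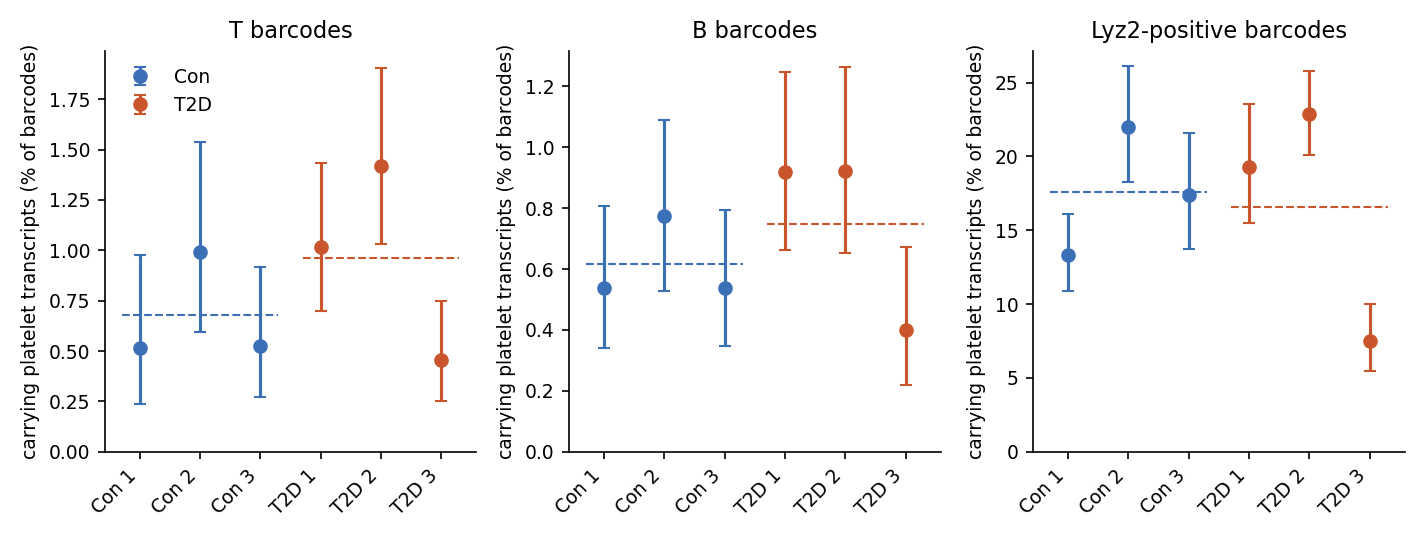
Share of T, B and Lyz2-positive barcodes carrying platelet transcripts in each library (points, percent, with exact 95% binomial intervals as bars), with dashed lines at the group means of Con (blue) and T2D (orange). In each class T2D 2 is the highest point and T2D 3 the lowest, and the Con points lie between or beside them.

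Within Lyz2-positive barcodes the share depended on the kind of cell. Barcodes were sorted into gates by genes that the member rule did not use: classical monocytes, the inflammatory type that leaves the blood early, by Ccr2, Ly6c2, Chil3 and Vcan; non-classical monocytes, which patrol the vessel wall, by Ace, Ear2, Adgre4 and Treml4; and neutrophils by Csf3r, Cxcr2, Retnlg and Mmp9. A barcode went to the gate with the largest sum, which had to reach 2 UMIs with no tie. Of barcodes in the classical gate 25.83% (352 of 1363) carried platelet transcripts, against 1.938% (23 of 1187) in the non-classical gate and 20.61% (114 of 553) in the neutrophil gate. The classical share was 25.99%, 26.81% and 24.53% in Con and 22.35%, 32.92% and 11.9% in T2D. The non-classical share was 2.251%, 6.849% and 2.581% in Con and 1.667%, 1.172% and 0.7353% in T2D. Every library's classical share was above every library's non-classical share.

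Averaged over libraries, the classical share exceeded the non-classical share by 21.54 percentage points (SD 6.633, 6 of 6 libraries, exact sign-flip permutation p = 0.03125, adjusted over 4 pairs 0.0625). Neutrophils exceeded non-classical monocytes by 18.57 points (SD 9.82, 6 of 6 libraries, exact permutation p = 0.03125, adjusted 0.0625). With 6 libraries 0.03125 is the smallest p this test can give, so neither passed 0.05 after adjustment at the deposited depth. With platelet counts thinned to a depth of 1500 UMIs and at least 3 platelet UMIs asked for in place of 5, both did. Shallower barcodes were left out, and the gates stayed as set at the deposited depth. The differences were 8.027 and 18.77 points, with an adjusted exact permutation p of 0.04167 each. Depth and threshold changed together there, so their parts cannot be told apart. Median depths of barcodes with 0 platelet UMIs were close in the monocyte gates, at 4885 UMIs for classical and 4366 for non-classical, and lower in the neutrophil gate, at 2776.

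The order of classical monocytes and neutrophils was not stable. At the deposited depth the classical share was 2.976 points above the neutrophil share (SD 7.817, higher in 3 of 6 libraries, adjusted exact permutation p = 0.4375). At 1500 UMIs and at least 3 platelet UMIs the difference was -10.74 points (lower in 6 of 6 libraries, adjusted exact permutation p = 0.04167), with mean shares of 9.455% and 20.2%. The neutrophil share was 12.87%, 14.55% and 28.95% in Con and 26.32%, 31.97% and 12.0% in T2D. CD4 and CD8 T barcodes did not differ beyond the spread: 30 of 5166 CD4 barcodes (0.5807%) and 59 of 7349 CD8 barcodes (0.8028%) carried platelet transcripts, with CD8 higher in 4 of 6 libraries (adjusted exact permutation p = 0.25), and after the same thinning the difference had the opposite sign, at -0.1892 points (adjusted exact permutation p = 0.2188).

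The 261 Lyz2-positive barcodes in no gate had a pooled share of 33.33% (87 barcodes), with 25.0%, 46.88% and 39.39% in Con and 44.68%, 25.0% and 27.27% in T2D. That was below the classical share in Con 1 and below both the classical and the neutrophil share in T2D 2. Their carriers had a median of only 1434 UMIs, 6 of them from Lyz2, and a median of 59 platelet UMIs, against 8 to 10 in the gated subsets. The 6 platelet genes were 4.61% of their UMIs at the median, 0.103% in classical and 0.269% in neutrophil carriers. These barcodes are part of every Lyz2-positive value given here.

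**Figure D3:**
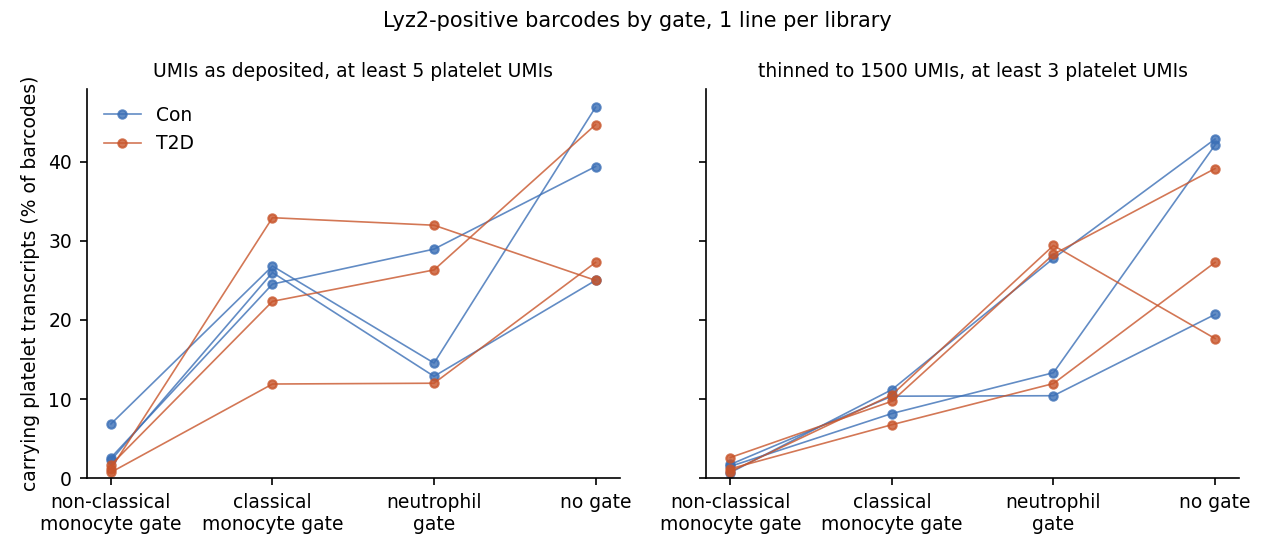
Share of Lyz2-positive barcodes carrying platelet transcripts (percent) by gate, 1 line per library (Con blue, T2D orange), at the deposited depth (left) and with platelet counts thinned to 1500 UMIs (right). Gates were set at the deposited depth in both panels. The non-classical gate is lowest in all 6 libraries in both panels, and the classical gate lies below the neutrophil gate in all 6 libraries at 1500 UMIs and at least 3 platelet UMIs.

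Lymphocyte barcodes with platelet transcripts often held a myeloid signal as well. Lyz2 reached 5 UMIs in 32 of 130 T carriers (24.62%) and in 170 of 14312 T barcodes with 0 platelet UMIs (1.188%). By library the share was 20% to 33.33% in T carriers and 0.5485% to 1.788% in the others, so the arms did not overlap. Of B carriers 42 of 173 (24.28%) were Lyz2-positive against 0.8141% without platelet UMIs, with a range over libraries of 9.756% to 39.13% against 0.4293% to 1.579%. B genes, in contrast, were no more frequent in T carriers (7.692%) than in T barcodes with 0 platelet UMIs (7.833%), and T genes reached their threshold in 5.78% of B carriers against 4.728%. Scrublet, a doublet caller, marked 22.31% of T carriers and 24.86% of B carriers against 6.072% and 3.792% of barcodes with 0 platelet UMIs, and 5.208% against 8.789% in the Lyz2-positive class. In all, 74 members (9.25%) belonged to at least 2 classes, against 3.781% of leukocytes with 0 platelet UMIs.

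The next values set carriers against barcodes of the same class with 0 platelet UMIs, as UMIs summed per library and given as CPM, counts scaled to a common library total. UMIs were counted from the 3′ end, so CPM needs no gene length. This contrast is the member rule's own, so its folds are a description, and the 6 platelet genes and the genes that define the classes were left out of its fits. In sums over barcodes, more cells with a transcript and more transcript per cell cannot be told apart. In the T class 8.59% of 10015 genes were called higher and 7.1% lower (edgeR quasi-likelihood, adjusted p under 0.05); in B 10.7% and 10.5% of 10581; in Lyz2-positive 13.9% and 12.8% of 7506. In the classical gate, which was added after the data had been seen, 3.1% and 2.56% of 5549 genes were called. Nothing is read from these shares.

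Platelet genes outside the rule were present with the rule genes in every class. In the T class 9 of 11 fitted genes for secreted and granule proteins (of 14 listed), 13 of 14 receptors (of 20) and 18 of 21 genes for the cytoskeleton and signalling (of 25) were called higher, with median log2 fold changes of 6.1, 6.19 and 3.56 against -0.19 over all genes. In the B class the counts were 8 of 10, 16 of 17 and 21 of 23, with medians of 6.31, 5.66 and 2.08 against -0.2. Genes reached these fits largely through the carriers, so the counts describe those that passed the filter. Of the megakaryocyte transcription factors, 2 of 5 fitted were called higher in T and 4 of 7 in B, with medians of 0.13 in T and 1.37 in B.

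Nrgn, which encodes a calmodulin-binding protein abundant in platelets, was at 935 to 2210 CPM in T carriers (median 1660) and at 7.97 to 14.5 CPM (median 12.7) in T barcodes with 0 platelet UMIs. Alox12, the platelet 12-lipoxygenase, was at 183 to 631 CPM (median 390) in T carriers against 1.22 to 2.13, a log2 fold change of 7.63 (SE 0.27). Clec1b, the receptor CLEC-2 for podoplanin, was at 99.6 to 300 CPM against 0.436 to 1.09 (log2 7.83, SE 0.43). Itgb3, the beta chain that pairs with Itga2b, was at 176 to 353 CPM against 33.0 to 38.6 (log2 2.84), so T barcodes without platelet UMIs already held some of it. In none of these 4 genes did the 2 arms overlap. B carriers gave close values, with Nrgn at 1340 to 2170 CPM and Alox12 at 271 to 539 CPM. The collagen receptor Gp6 and multimerin Mmrn1 were also among the 8 genes with the largest folds in B, with log2 fold changes of 8.22 and 8.24.

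Monocyte transcripts at or near 0 in free platelets were also high in lymphocyte carriers. Fn1 (fibronectin) had 0 CPM in platelet barcodes with no T, B or Lyz2 UMI. It was at 40.8 to 1710 CPM (median 579) in T carriers against 4.33 to 16.7 with 0 platelet UMIs. Ccr2, the chemokine receptor of classical monocytes, was at 231 to 1680 CPM (median 800) against 36.2 to 97.9. Lyz2 itself, absent from free platelets by their definition, was at 3780 to 12300 CPM against 147 to 419. B carriers held Fn1 at 182 to 1360 CPM against 2.81 to 21.0, Ccr2 at 546 to 1550 against 7.63 to 37.7, and Vcan (versican) at 39.9 to 593 against 1.15 to 5.83. Of the 6 classical monocyte genes 5 were called higher in T and 5 in B, with 1 lower in B. Of the 6 non-classical genes 5 were called higher in T and 5 in B, with 1 lower in T. Of 6 fitted neutrophil genes 4 were called higher in T and 3 in B. All 10 myeloid list genes were called higher in T and all 10 in B. Over all genes fitted, 8.59% were called higher in T and 10.7% in B. In carriers that met the B rule alone, Cybb, Ctss, Cd68 and Clec4a3 of this list had the opposite sign. Cd68 and Ctss had it in carriers that met the T rule alone.

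Carriers that met only 1 class rule were then taken alone, a choice that removes every T or B carrier with at least 5 Lyz2 UMIs and so lowers monocyte transcripts by construction. Among T carriers that met the T rule alone, mean Fn1 was 2.27 CPM, Vcan 3.03 CPM and Chil3 15.1 CPM, all within or below the range of T barcodes with 0 platelet UMIs, whereas Ccr2 was 311 CPM, above them. Among B carriers of 1 class Fn1 was 5.58 CPM, Vcan 0 CPM and Chil3 3.89 CPM. Platelet genes stayed, with Nrgn at 1740 CPM and Alox12 at 437 CPM in such T carriers. Of the genes called higher in T carriers of 1 class, 266 of 291 (91.4%) had a higher mean in free platelets than in T barcodes without platelet UMIs, against 688 of 860 (80.0%) among all T carriers and 24.0% to 24.9% of all genes. In B the share was 335 of 341 (98.2%) for 1 class and 866 of 1131 (76.6%) for all. Carriers and free platelets were chosen by the same 6 genes, so such shares, also in the classical gate below, are a description.

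**Figure D4:**
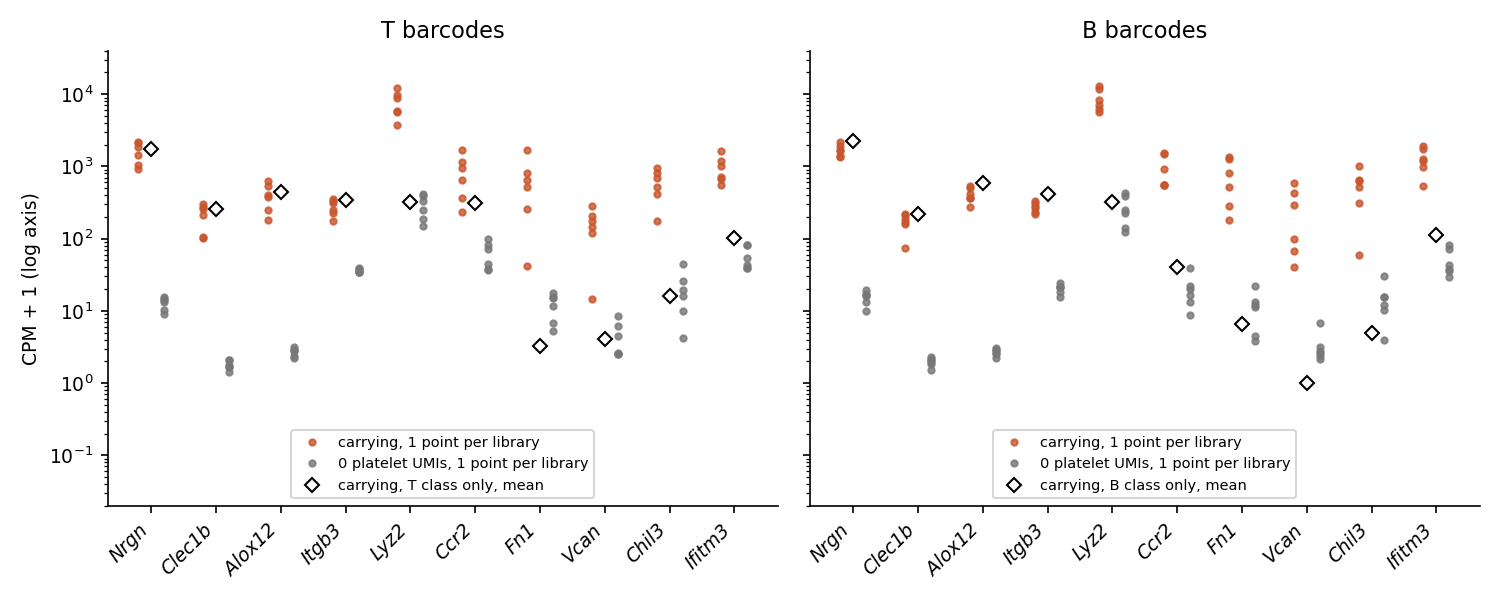
CPM + 1 (log axis) of 4 platelet genes and 6 monocyte genes in T (left) and B (right) barcodes: carriers (orange) and barcodes with 0 platelet UMIs (grey), 1 point per library, and the mean of carriers that met only that class rule (open diamonds). The diamonds of Nrgn, Clec1b, Alox12 and Itgb3 lie among or above the carriers' points, and those of Fn1, Vcan and Chil3 lie among or below the grey points.

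A neutrophil signal remained on average in T carriers of 1 class, but not in every library. Retnlg, a neutrophil secretory protein, averaged 682 CPM there against 11.3 to 48.3 CPM in T barcodes with 0 platelet UMIs, and Csf3r, the receptor for G-CSF, averaged 71.3 CPM against 3.82 to 12.8. The 7 neutrophil genes together ranged from 36.3 to 3740 CPM over the libraries, against 80.4 to 392 without platelet UMIs. Free platelet barcodes themselves held Retnlg at 3440 CPM and Csf3r at 762 CPM on average, since the rule for them asked for no Lyz2 UMI but set no limit on neutrophil genes. They are therefore no pure platelet reference.

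Lymphocyte genes had a lower CPM in carriers, beside the added platelet and myeloid transcripts. All 10 T cell list genes were called lower in T carriers (median log2 -0.76), for example Trac, the T cell receptor alpha constant chain, at 388 to 797 CPM (median 764) against 1270 to 1470. In T carriers of 1 class Trac averaged 1000 CPM. All 10 B cell list genes were called lower in B carriers (median -0.76), for example Cd74, the invariant chain of MHC class II, at 7310 to 10200 CPM against 12700 to 13600, and at 11400 CPM on average in B carriers of 1 class. Defining markers were present in each class: Cd3e was at 318 to 727 CPM in T carriers and Cd79a at 286 to 539 CPM in B carriers. Ighg2c, an immunoglobulin G heavy chain of plasma cells, was at 0 to 25.2 CPM in B carriers against 6.36 to 450, with overlapping ranges, and its log2 fold change of -4.32 turned to 0.15 at 2000 to 8000 UMIs.

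Ccl3 and Egr1 varied widely between the libraries in B carriers. Ccl3, a chemokine of activated leukocytes, was at 786, 678 and 891 CPM in Con B carriers and 2000, 52.6 and 0 CPM in T2D, against 15.2 to 24.4 CPM in B barcodes with 0 platelet UMIs. Egr1, an immediate early transcription factor, was at 271, 1430 and 252 CPM in Con and 952, 344 and 13.5 CPM in T2D, against 42.8 to 80.7. For both genes T2D 3 was the lowest of the 6 libraries, and the groups overlapped for Egr1 and Ccl3. In B carriers of 1 class the means were 924 and 766 CPM, so for these genes the level did not drop with the barcodes of several classes. The basophil list summed to 13.5 to 319 CPM in B carriers against 3.79 to 14.8, and its part in the Ccl3 values was not tested.

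Lyz2-positive carriers differed from other Lyz2-positive barcodes in their mix of monocytes. All 6 classical monocyte genes were called higher (median log2 1.34) and all 6 non-classical genes lower (median -2.34). Ccr2 was at 1430 to 2860 CPM (median 2070) against 579 to 973, and Ace, an angiotensin-converting enzyme marking non-classical monocytes, was at 92.1 to 226 CPM against 445 to 1020. Cd300e and Fabp4 were among the 8 lowest, with log2 fold changes of -4.41 and -3.82. Of the 7 neutrophil genes 0 were called by edgeR, 0 by DESeq2 and 0 at an unadjusted p under 0.05. Platelet receptors were higher in 14 of 15 fitted genes, led by Gp1ba, the von Willebrand factor receptor's main chain, at 63.9 to 180 CPM against 0 to 0.89.

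In the classical gate 172 genes were called higher and 142 lower. Of the higher ones 123 (71.5%) had a higher mean in free platelets than in the monocytes without platelet UMIs, against 524 of 1047 (50%) in all Lyz2-positive barcodes. All 9 fitted platelet receptors were called higher (median log2 2.77), as were 5 of 8 secreted and granule genes (1.11) and 12 of 19 cytoskeleton and signalling genes (0.66), against a median of 0 over all genes. Nrgn was at 812 to 1380 CPM (median 1060) against 73.4 to 175, Alox12 at 112 to 201 against 7.08 to 23.7, and Itga6, the laminin receptor's alpha chain, at 159 to 252 against 23.7 to 42.8. Of the leukocyte receptors for platelets, Selplg was at 368 to 472 CPM against 315 to 458 and Itgam at 675 to 941 against 656 to 885, neither called. Cd36 was the one member called lower (log2 -1.7). Csf1r, the receptor for macrophage colony-stimulating factor, overlapped between arms at 708 to 902 CPM against 810 to 892.

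A few genes that free platelets held less of than the monocytes differed inside the classical gate. Ccl2, a chemokine that draws monocytes, was at 57.5 to 207 CPM (median 136) in carriers against 24.8 to 136 (median 87.6), with a log2 fold change of 0.73 (SE 0.16). Lgals1 (galectin 1) had a log2 fold change of 0.45 and Iqgap2 of 0.52. Vcan and Fn1 were higher by 0.39 and 0.25, with overlapping ranges. Of 16 myeloid activation genes 12 were fitted, and 5 were called higher by edgeR and 1 by DESeq2. T cell genes were lower, 10 of 10, for example Trac at 16.8 to 58.5 CPM against 54.3 to 222, and T genes reached their class threshold in 6.534% of classical carriers against 12.2% of classical barcodes without platelet UMIs. Classical carriers were also deeper, with medians of 8762 against 4885 UMIs, and the part of depth and of mixed barcodes in these folds was not tested.

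Whether diabetes changed the carriers was tested between libraries, a contrast that the rule did not use. Few genes passed: 4 of 3055 in B carriers (0.131%), 19 of 6303 in Lyz2-positive carriers (0.301%) and 38 of 5792 in classical carriers (0.656%), with the quasi-likelihood fit of edgeR and p adjusted by Benjamini-Hochberg, as for every adjusted p below. Unadjusted p fell under 0.05 for 149, 468 and 438 genes. T carriers were not tested in this contrast because Con 1 had only 9. The later test of a difference in the T2D effect asked for no such minimum, so it took in the T class. The classical carriers are most of the Lyz2-positive ones, so those results are not independent of each other.

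The genes of the platelet lists did not pass between T2D and Con in the carriers. In classical carriers 0 of 8 fitted secreted and granule genes, 0 of 11 receptors and 0 of 23 cytoskeleton and signalling genes were called by edgeR, and 0 in each list by DESeq2, with 2, 1 and 4 at an unadjusted p under 0.05. The same lists gave 0 of 9, 0 of 14 and 0 of 23 in Lyz2-positive carriers by both tools, with 4, 1 and 3 at an unadjusted p under 0.05. They gave 0 of 7, 0 of 9 and 0 of 19 in B carriers by both tools, with 1, 2 and 1 at an unadjusted p under 0.05. In classical carriers Pf4 was at 216, 196 and 212 CPM in Con and 216, 190 and 153 in T2D. Ppbp was at 773, 895 and 902 CPM in Con and 924, 820 and 1110 in T2D. The groups overlapped for both genes. In Lyz2-positive carriers Ppbp was at 1940, 2460 and 2810 CPM in Con and 4950, 1440 and 4320 in T2D. Tubb1 was at 13.6, 23.5 and 13.8 CPM in Con and 47.3, 14.4 and 82.9 in T2D. For both, T2D 1 and T2D 3 lay above every Con library and T2D 2 did not.

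Rel, which encodes the c-Rel subunit of NF-kappaB, was lower in T2D carriers. In classical carriers it was at 367, 439 and 342 CPM in Con and 151, 167 and 139 CPM in T2D, so the groups did not overlap (log2 -1.29, SE 0.16, adjusted p = 3.38e-05). Classical monocytes with 0 platelet UMIs held 305, 486 and 388 CPM in Con and 209, 239 and 154 CPM in T2D. The difference of the T2D effect between the arms was -0.39 (SE 0.2, adjusted p = 0.999), so the fall was not shown to be larger with platelet transcripts. Rel also fell in Lyz2-positive carriers (log2 -1.36, adjusted p = 6.52e-04). Both calls held in all 12 alternatives run, with a highest adjusted p of 0.00277 in classical and 0.0248 in Lyz2-positive carriers.

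Sod2, Tlr2 and Zc3h12a were also lower in classical carriers of T2D. Sod2, the mitochondrial superoxide dismutase, was at 223, 305 and 221 CPM in Con and 154, 102 and 48.6 in T2D (log2 -1.22, adjusted p = 0.00844), and lost the call without Con 2 or T2D 2. Tlr2, a receptor for bacterial lipoproteins, was at 316, 549 and 354 CPM in Con and 187, 212 and 278 in T2D (log2 -0.92, adjusted p = 0.0212). Its call was lost without any of Con 2, T2D 1, T2D 2 and T2D 3. Zc3h12a, the ribonuclease regnase-1, fell from 159, 262 and 142 CPM to 98.3, 99.3 and 48.6 (adjusted p = 0.0345), a call that ended in 6 of 12 alternatives, among them without Con 2, T2D 1 or T2D 2. Nfkbia, the inhibitor IkappaB-alpha, was at 3420, 3850 and 3460 CPM in Con and 2610, 1310 and 1100 CPM in T2D, and Nlrp3 had a log2 fold change of -0.69 (adjusted p of 0.628 and 0.0598). Of 16 myeloid activation genes 12 were fitted, 1 was higher and 1 lower.

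Fos and Ccl2 were higher in classical carriers of T2D. Fos, a subunit of AP-1, was at 2460, 2230 and 2170 CPM in Con and 3170, 3770 and 4420 CPM in T2D (log2 0.705, SE 0.115, adjusted p = 0.0019), and the call was lost only without Con 2 (adjusted p = 0.06). Ccl2 was at 114, 74.7 and 57.5 CPM in Con and 157, 207 and 201 in T2D (log2 1.17, SE 0.215, adjusted p = 0.00629). Its call was lost without Con 2 or T2D 2. Nr4a1, an orphan nuclear receptor induced early after activation, went the other way, from 2440, 3000 and 2460 CPM to 1900, 1890 and 1430 CPM (log2 -0.595, adjusted p = 0.0149, lost without Con 2). The groups did not overlap for any of the 3. Classical monocytes with 0 platelet UMIs had Fos at 2230, 1810 and 1750 CPM in Con and 3120, 2660 and 2890 in T2D, and Ccl2 at 39.5, 47.2 and 24.8 against 128, 136 and 134. The difference between the arms was not shown for Fos (0.13, adjusted p = 0.999) or for Ccl2 (-0.59, adjusted p = 0.999).

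**Figure D5:**
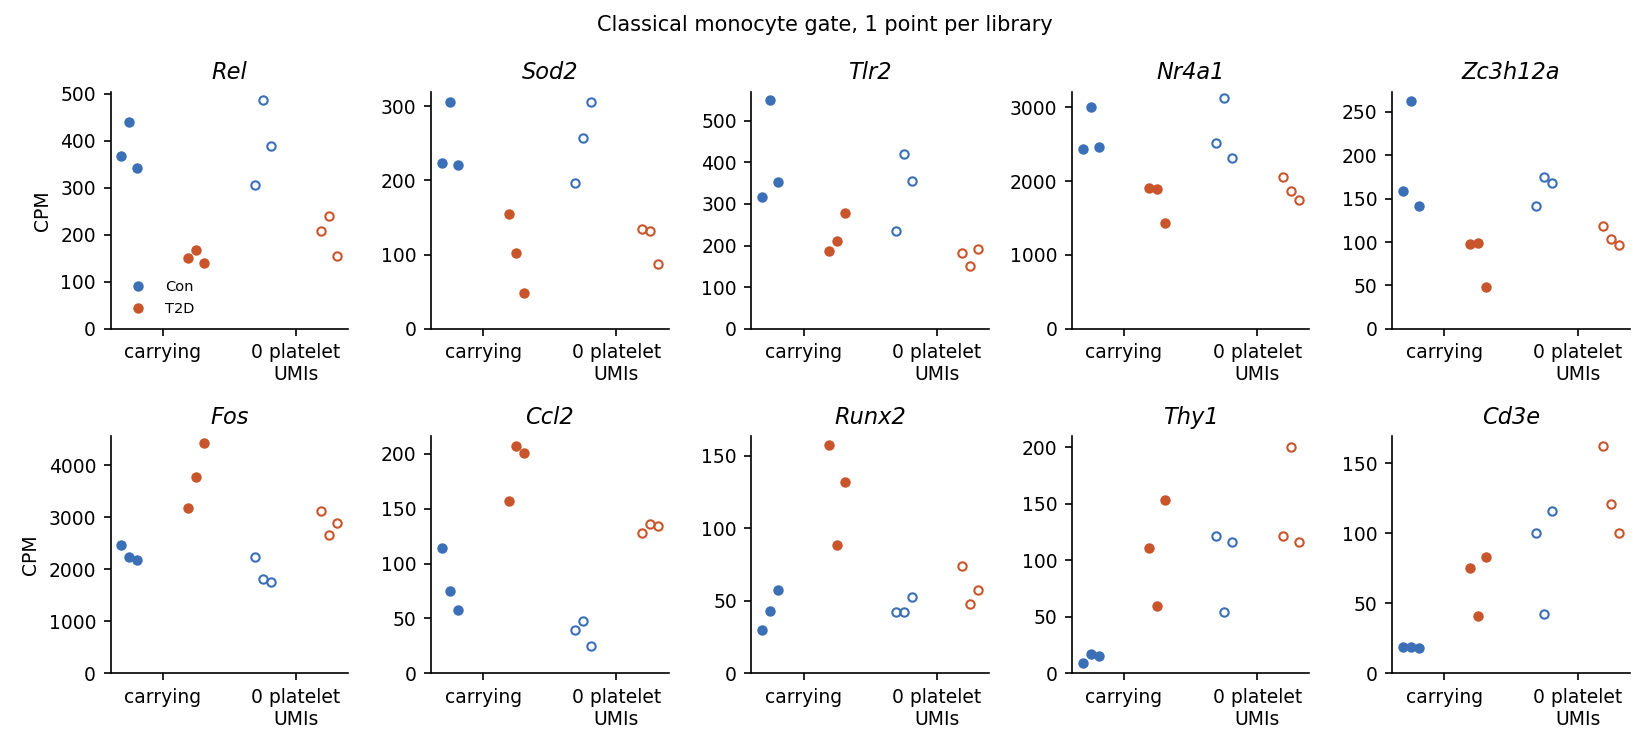
CPM of 10 genes in classical-gate barcodes, carriers as filled and barcodes with 0 platelet UMIs as open points, 1 point per library (Con blue, T2D orange). In the carriers the Con and T2D points of each gene are apart, and for Rel, Sod2, Tlr2, Nr4a1, Zc3h12a, Fos and Ccl2 the open points lie on the same sides, while those of Runx2, Thy1 and Cd3e overlap.

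Some T cell transcripts were higher in T2D carriers. Of the T cell list 1 of 7 fitted genes was called in classical carriers, 1 of 5 in B carriers and 0 of 8 in Lyz2-positive carriers, with 6, 5 and 5 at an unadjusted p under 0.05 and 0, 1 and 0 called by DESeq2. Thy1, a T cell surface glycoprotein in mice, was at 9.23, 16.8 and 15.1 CPM in classical carriers of Con and 111, 59.3 and 153 CPM in T2D (log2 2.68, SE 0.39, adjusted p = 3.64e-04), and with classical carriers of 1 class alone its adjusted p was 0.507. Cd3e was at 18.5, 18.7 and 18.2 CPM in Con and 75.4, 40.9 and 83.3 in T2D (adjusted p = 0.0279, lost in 8 of 11 alternatives). In B carriers Thy1 was at 0, 13.0 and 8.41 CPM in Con and 120, 162 and 175 in T2D (adjusted p = 0.00131, lost without T2D 2), and Il7r, the interleukin 7 receptor, at 21.4, 45.6 and 33.6 against 131, 243 and 175 (adjusted p = 0.0106, lost without Con 1, Con 3 or T2D 2). Neither gene was called in B carriers with doublets left out, where 0 genes were, nor in B carriers of 1 class: both fell below the filter on low counts there. B barcodes with 0 platelet UMIs were shifted the same way, with Thy1 at 52.3 to 60.1 CPM in Con and 106 to 112 in T2D and Cd3e at 50.9 to 58.8 against 71.3 to 92.8. The summed T cell list in B carriers was 357 to 437 CPM in Con and 895 to 1300 in T2D. In classical carriers it was 217 to 384 against 380 to 708. T barcodes themselves were 1748 of 7575, 1921 of 7339 and 2276 of 8115 kept barcodes in Con. In T2D they were 3145 of 8997, 3030 of 8816 and 3304 of 8183, a larger part than in any Con library. The part of this difference and of mixed barcodes in these values was not tested.

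B carriers gave 2 further genes. Nlrp3, the sensor of an inflammasome found in myeloid cells, was at 300, 352 and 261 CPM in Con and 91.2, 97.1 and 27 CPM in T2D (log2 -1.93, SE 0.34, adjusted p = 0.0101). The call did not hold without Con 2 or Con 3, nor with called doublets left out. Beside it, the summed myeloid list was 7880 to 12200 CPM in Con B carriers and 4830 to 10300 in T2D, and its part was not tested. Hbb-bs, a beta globin, was at 42.9, 65.2 and 50.4 CPM in Con and 194, 300 and 162 in T2D (adjusted p = 0.0106), while B barcodes with 0 platelet UMIs overlapped at 57.4, 451 and 199 against 334, 654 and 214. The summed erythroid list was 248 to 261 CPM in Con B carriers and 472 to 708 in T2D, and its part was not tested. That call was lost without Con 1, Con 3 or T2D 2, with doublets left out, and with DESeq2.

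In Lyz2-positive carriers as a whole Ifitm1, an interferon-induced membrane protein, was at 112, 116 and 71.5 CPM in Con and 403, 323 and 355 in T2D (log2 1.83, SE 0.19, adjusted p = 1.05e-04). The groups were far apart, and the call held in all 12 alternatives (highest adjusted p 0.0145). With 0 platelet UMIs Ifitm1 overlapped, at 149, 227 and 67.1 CPM in Con against 145, 255 and 196 in T2D, yet the test of the difference between arms gave 1.38 (SE 0.31, adjusted p = 0.366). Free platelet barcodes held 515 CPM on average. The make-up of Lyz2-positive carriers varied by library, with median Lyz2 UMIs of 179.5, 169 and 120 in Con and 21.5, 193 and 15 in T2D. Ppbp was at 1940, 2460 and 2810 CPM in Con and 4950, 1440 and 4320 in T2D. The part of this make-up in the values of this paragraph was not tested. Klf2, a transcription factor of quiescence, rose from 501, 493 and 579 CPM to 756, 950 and 1040 (log2 0.815, adjusted p = 0.0326, lost without any single Con library). Tubb2a, a beta tubulin with 2480 CPM in free platelets, rose from 87.8, 89.2 and 129 CPM to 239, 174 and 350 (adjusted p = 0.049, lost without Con 1, Con 2, T2D 1 or T2D 3). Tgif1, Tifa and Nfkbid fell, by log2 values of -0.98, -0.92 and -0.84. Each lost its call without any single Con library and with barcodes of 1 class alone.

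A T2D effect that differed between carriers and barcodes with 0 platelet UMIs was called for 1 of 10728 genes in T (0.00932%), 11 of 11298 in B (0.0974%), 2 of 8165 in Lyz2-positive (0.0245%) and 1 of 6325 in the classical gate (0.0158%). Cd7, a surface protein of lymphocytes, was the classical one. It was at 44.3, 22.4 and 60.5 CPM in Con carriers and 292, 121 and 375 in T2D carriers, against 52.7, 11.8 and 33.0 in Con and 26.9, 24.5 and 19.7 in T2D without platelet UMIs (difference of log2 effects 2.91, SE 0.49, adjusted p = 0.00796). Only carriers of T2D were high. The call was lost without Con 1 and at a threshold of 3 platelet UMIs, and free platelet barcodes held 136 CPM of Cd7 on average.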

How the data were processed

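Mononuclear blood cells of 6 libraries (3 Con, 3 T2D, from the sample titles) were profiled with BD Rhapsody whole-transcriptome 3′ chemistry, per the labels' protocols. Each library's deposited matrix holds untransformed UMI counts of genes by barcodes. Build mm10 and the tools CASAVA 1.8, UMI-tools and Seurat stand in the submitters' processing notes without roles; aligner, annotation and strand setting: not given in the sources used here. Hence counts of overlapping or near-identical genes (the globins, for example) may be shared out arbitrarily.

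From the counts, barcodes were classed by the stated UMI thresholds, and doublets were called (scrublet scheme in scanpy 1.11.5, expected rate 0.06, common score threshold 0.2787, the median of the libraries' own thresholds) but left in, because a leukocyte with a platelet is itself a joint barcode; leaving the 1556 calls out was an alternative. UMIs were summed per library, class and arm, with at least 10 carriers per library asked for the T2D contrast, and fitted in edgeR 4.0.16 (R 4.3.3; TMM, filterByExpr, robust quasi-likelihood, Benjamini-Hochberg over all genes fitted, threshold 0.05), with the library as a block where both arms entered. The fits were tested on counts simulated at a fixed dispersion with 4-fold changes. Of these, 93.5% to 100% were recovered between the arms and 81% to 96.5% between T2D and Con in carriers. For the difference of the T2D effect 72.5% to 81% were recovered. False calls were 1.36% to 6.9% of all calls. Smaller changes were not simulated. Shares were compared by two-sided exact permutation over libraries (Python 3.11.15, scipy 1.17.1). DESeq2 1.42.0, other thresholds, thinning, a window of 2000 to 8000 UMIs, barcodes of 1 class and leaving out each library were alternatives. Libraries were checked for duplicates by chi-square over gene totals (lowest chi-square per degree of freedom 10.158). Gene positions are from GENCODE M21.

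Named genes were, per class, the 8 largest called differences in each direction (at least 100 CPM in the higher arm for carriers against 0 platelet UMIs, with the same sign in 6 libraries; at least 50 CPM in the higher group for T2D), the 8 largest that free platelets held less of than the leukocytes, and members of the marker lists. Members and lists were chosen with earlier results of these data known. Results of some genes are not reported here. The classical-gate fits were added after the data had been seen.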

Additional observations from a re-analysis of the deposited data

Results flagged for a closer look

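The T2D effect differed between carriers and barcodes of the same class with 0 platelet UMIs for 13 named combinations of gene and class, by a quasi-likelihood test of the difference in edgeR with p adjusted by Benjamini-Hochberg. Values are the log2 T2D effect in carriers minus that without platelet UMIs. In T barcodes it was 1.372 for Fos (adjusted p = 4.39e-04): carriers held 1080, 339 and 789 CPM in Con and 1320, 1310 and 2430 CPM in T2D, and T barcodes with 0 platelet UMIs held 247 to 355 CPM. The call was lost without Con 2, T2D 1 or T2D 3 and in barcodes of 1 class.

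In B barcodes 2 of the 9 named differences were positive, 3.339 for Thy1 (adjusted p = 0.00146) and 2.486 for Bcap29 (adjusted p = 0.0239), a protein of the endoplasmic reticulum. Bcap29 was at 42.9, 6.52 and 8.41 CPM in Con carriers and 68.4, 125 and 80.9 in T2D carriers. The largest negative differences were -2.382 for Gsto1 (adjusted p = 0.00302) and -2.343 for Rgs1 (adjusted p = 6.89e-05), a regulator of G protein signalling induced in activated B cells. Gsto1 carriers overlapped between groups (121, 45.6 and 84.1 CPM in Con, 45.6, 101 and 80.9 in T2D), and 1 sum with 0 platelet UMIs stood apart, T2D 2 at 274 CPM against 16.5 to 20.2 in the other libraries. Rgs1 carriers were at 71.4, 541 and 303 CPM in Con and 39.9, 97.1 and 13.5 in T2D.

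The other B differences were of genes with myeloid or inflammatory expression: -1.428 for Anxa2 (adjusted p = 0.00302), -1.387 for Itgam (0.00635), -1.365 for Ifi27l2a (0.00103), -1.244 for Tnfaip3 (4.91e-04) and -1.052 for S100a6 (0.0197). With B carriers of 1 class alone every named B call but that of Rgs1 was lost, and the call of Rgs1 was lost without Con 2. In Lyz2-positive barcodes the difference was 2.432 for Cd7 (adjusted p = 0.0347) and 1.188 for Smim3 (adjusted p = 0.0347), and in the classical gate 2.91 for Cd7 (adjusted p = 0.00796).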

How the results depend on the processing

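Tests over 3 libraries against 3 are limited by their number, and sums of carriers by depth (56664 UMIs in the smallest T sum). Thinning to 1500 UMIs together with a threshold of 3 platelet UMIs turned the T2D minus Con difference of the Lyz2-positive share to 0.8594 percentage points (-2.617 at a threshold of 3 without thinning), the classical minus neutrophil difference to -10.74 and the CD8 minus CD4 difference to -0.1892, and brought the classical and the neutrophil minus non-classical differences past the threshold (8.027 and 18.77). Leaving out 1 library gave T2D minus Con differences of 0.05868 to 0.5413 points in T, 0.04466 to 0.3056 in B, -4.175 to 3.496 in Lyz2-positive barcodes (1.189 without Con 2, 3.496 without T2D 3) and -0.3868 (without T2D 2) to 0.8116 in all 3 classes. It gave 19.5 to 23.62 points for classical minus non-classical, 0.9468 to 4.455 for classical minus neutrophil, 16.12 to 20.74 for neutrophil minus non-classical and 0.1098 to 0.254 for CD8 minus CD4.

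Genes called between carriers and 0 platelet UMIs in T numbered 610 at a threshold of 10 platelet UMIs, 460 in barcodes of 1 class and 605 at 2000 to 8000 UMIs, and in B 1435, 532 and 732. In Lyz2-positive barcodes there were 1286 at a threshold of 10, 1276 at 2000 to 8000 UMIs and 1334 with DESeq2. The classical gate gave 173 at a threshold of 10, 98 in 1 class, 207 at 2000 to 8000 UMIs, 150 with DESeq2 and 198 without the library block. Leaving out 1 library gave 1170 to 1450 in T, 1742 to 2263 in B, 1412 to 2014 in Lyz2-positive and 174 to 370 in classical barcodes.

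Genes called between T2D and Con carriers numbered 8 in B at a threshold of 3 platelet UMIs, 2 in 1 class, 0 with doublets left out and 14 with no filter. Lyz2-positive carriers gave 60 at a threshold of 3, 8 in 1 class, 115 with no filter and 30 with DESeq2, and classical carriers 64 with no filter and 19 with DESeq2. Leaving out 1 library gave 1 to 9, 2 to 144 and 3 to 48. For the difference of the T2D effect there were 6 in T at a threshold of 3 and 4 in 1 class, 3 in B in 1 class, 13, 1 and 33 in Lyz2-positive (threshold of 3, 1 class, no filter), and 0 and 5 in the classical gate (threshold of 3, no filter). Leaving out 1 library gave 1 to 3 in T, 7 to 15 in B, 0 to 13 in Lyz2-positive and 1 to 4 in classical barcodes.

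Deviations of same-numbered Con and T2D libraries had correlations of -0.065, -0.192 and 0.006 in B carriers. They were -0.005, -0.008 and 0.062 in Lyz2-positive and -0.013, 0.021 and 0.022 in classical carriers. With 3 libraries per group these values cannot decide if same-numbered libraries were handled together, which is not stated. With a replicate block 6 genes were called in B carriers, 65 in Lyz2-positive and 80 in classical carriers, against 4, 19 and 38 without it. The share differences with the block were 0.2865 points in T, 0.1322 in B, -1.025 in Lyz2-positive and 0.2714 in all.

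Of the gene values under alternatives, 6177 kept direction and side of the threshold, 780 lost the call and 35 reversed. In B carriers of 1 class these were Cd68 (-0.035), Cd69 (0.036), Chil3 (-0.772), Clec4a3 (-0.079), Ctss (-0.391), Cx3cr1 (-0.114), Cybb (-0.407), Fos (-0.108), Nr4a1 (-0.375), Tcf7 (0.119), Trac (0.483) and, for the difference of the T2D effect, Gsto1 (0.023). In B at 2000 to 8000 UMIs they were Ctss (-0.102), Fos (-0.091), Ighg2c (0.15), Jun (-0.119) and Spn (-0.026), and with doublets left out Gzma (0.045). In T carriers of 1 class they were Ccl3 (-0.534), Cd68 (-0.102), Ctss (-0.176), Cx3cr1 (-0.847), Egr1 (-0.46), H2-Eb1 (0.175), Itgb2 (-0.226) and Ly6c2 (-0.303). In T at 2000 to 8000 UMIs they were Ctss (-0.007), Cx3cr1 (-0.255) and Ly6c2 (-0.137), and at a threshold of 10 Hdc (-0.108) and Ly6c2 (-0.256). Lyz2-positive barcodes of 1 class gave Cd69 (0.087), Lef1 (0.102) and Trbc2 (0.054), and those at 2000 to 8000 UMIs Cd69 (0.074). Where no construction of the alternative shows it, the cause was not tested.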
